A study of Mus musculus with 3 samples.

Results

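Of the 9123 H3K4me3 peaks of at least 1000 bp and under 3500 bp on chromosomes 1 to 19 and X of mouse alveolar type II (AT2) cells, 362 overlapped no ETV5 peak by even 1 base, and these 362 peaks are described here. They were chosen by their length and by the absence of a called ETV5 peak, so both properties describe the choice and are no result. The share of the length class that the choice took was 3.97%. The whole H3K4me3 list held 15134 peaks and the whole ETV5 list 31165. AT2 cells are the surfactant-making epithelial cells of lung alveoli. The cells came from C57BL/6 mice of 10 to 12 weeks, for which the labels name no allele, treatment or sex, and they do not say whether animals were pooled. Chromatin was immunoprecipitated in 1 library with an antibody against ETV5 and in 1 library with an antibody against H3K4me3, and 1 input library was listed beside them.

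H3K4me3, trimethylation of lysine 4 of histone H3, is deposited around the start sites of active genes, most of all where the DNA is rich in CpG dinucleotides, because parts of the enzyme complexes that write it bind unmethylated CpG. ETV5 is a transcription factor of the ETS family, whose members bind DNA around a GGAA core, and in AT2 cells it acts downstream of FGF and ERK signalling. Most H3K4me3 peaks of this length carried ETV5 too, and the peaks described here did not.

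There was no replicate of either library, so no difference below could be tested against the spread between replicates and no p-value is given. Shares carry exact 95% Clopper-Pearson intervals, fragment counts carry exact 95% Poisson intervals, and both cover counting error only. The ETV5 list was made from 5715049 tags and the H3K4me3 list from 34907608. A peak without ETV5 is therefore one without an ETV5 call at this depth, and weaker binding there was not detectable. Against marker lists for the labelled cell type, 31 of 35 AT2 genes had an H3K4me3 peak within 1 kb of a start site or gene end. So had 17 of 20 AT1 genes, 4 of 12 basal cell genes, 5 of 15 genes of airway secretory cells and 11 of 15 of ciliated cells. The counts were 1 of 15 for mesenchymal, 2 of 15 for endothelial, 2 of 20 for macrophage and leukocyte and 2 of 15 for lymphocyte genes. Over all protein-coding genes the count was 11748 of 21627.

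Promoter letters show what these regions look like. The 250 bases before a start site are printed 5′ to 3′ on the gene's strand, from RefSeq on GRCm38.p6, for 9 genes at peaks without ETV5 and 1 gene at a peak with it. The first 5 show the range of CpG content, with each CG in capitals. Dgkd (chr1:87853037-87853286, plus strand) lies at the peak of highest fold, Zup1 (chr10:33951260-33951509, minus strand) at the seventh, Zfp101 (chr17:33394638-33394887, minus strand) and Tceal9 (chrX:136244830-136245079, plus strand) stand for the zinc finger and X-linked groups, and H2-Aa (chr17:34287824-34288073, minus strand) for the promoters that hold almost no CpG.
Dgkd promoter: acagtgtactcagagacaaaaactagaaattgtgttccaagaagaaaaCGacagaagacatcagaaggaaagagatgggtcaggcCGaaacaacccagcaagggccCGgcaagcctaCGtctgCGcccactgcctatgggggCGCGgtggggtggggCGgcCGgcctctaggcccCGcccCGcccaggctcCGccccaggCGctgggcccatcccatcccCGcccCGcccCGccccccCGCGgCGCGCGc
Zup1 promoter: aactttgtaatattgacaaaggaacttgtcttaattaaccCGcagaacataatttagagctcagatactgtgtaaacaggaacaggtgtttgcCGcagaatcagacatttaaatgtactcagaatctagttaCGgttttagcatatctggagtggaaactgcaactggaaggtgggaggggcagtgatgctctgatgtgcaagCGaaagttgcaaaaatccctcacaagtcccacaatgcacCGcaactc
Zfp101 promoter: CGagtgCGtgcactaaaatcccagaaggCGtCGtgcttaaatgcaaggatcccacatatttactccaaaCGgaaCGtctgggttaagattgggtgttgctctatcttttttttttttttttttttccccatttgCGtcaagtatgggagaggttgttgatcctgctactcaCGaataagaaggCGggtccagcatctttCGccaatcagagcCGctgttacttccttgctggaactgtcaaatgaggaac
Tceal9 promoter: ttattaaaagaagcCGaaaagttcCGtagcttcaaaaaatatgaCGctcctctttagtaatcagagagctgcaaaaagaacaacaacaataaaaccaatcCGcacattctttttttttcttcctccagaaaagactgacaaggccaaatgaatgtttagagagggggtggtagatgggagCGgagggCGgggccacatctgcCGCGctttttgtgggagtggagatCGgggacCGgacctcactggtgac
H2-Aa promoter: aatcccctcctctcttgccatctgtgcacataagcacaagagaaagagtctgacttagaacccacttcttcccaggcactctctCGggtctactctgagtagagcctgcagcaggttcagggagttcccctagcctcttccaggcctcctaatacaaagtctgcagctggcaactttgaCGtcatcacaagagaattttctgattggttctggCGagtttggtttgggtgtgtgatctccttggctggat
The Dgkd stretch held 21 CG, crowded towards its 3′ end, and the Zfp101 stretch held 11, the Tceal9 stretch 10, the Zup1 stretch 5 and the H2-Aa stretch 3.

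The next pair contrasts the CCGGAA letters, the ETS core, on either strand in capitals (TTCCGG on the other strand). Zfp458 (chr13:67268995-67269244, minus strand) is a zinc finger gene whose peak lacked ETV5 although the promoter holds the core, and Zbtb11 (chr16:55973554-55973803, plus strand) had the highest-fold H3K4me3 peak with ETV5 among protein-coding promoters that hold the longer core CCGGAAGT in these 250 bases.
Zfp458 promoter: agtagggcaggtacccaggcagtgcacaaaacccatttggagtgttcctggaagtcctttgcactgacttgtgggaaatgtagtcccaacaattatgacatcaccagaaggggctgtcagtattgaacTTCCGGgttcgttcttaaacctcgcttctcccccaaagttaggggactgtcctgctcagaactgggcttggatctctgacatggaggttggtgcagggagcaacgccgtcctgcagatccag
Zbtb11 promoter: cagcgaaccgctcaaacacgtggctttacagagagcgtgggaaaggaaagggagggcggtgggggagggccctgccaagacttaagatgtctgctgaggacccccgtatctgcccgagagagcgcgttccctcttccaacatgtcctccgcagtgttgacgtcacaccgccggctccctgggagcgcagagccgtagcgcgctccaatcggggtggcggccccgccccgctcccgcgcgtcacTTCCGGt
The core lay just before the start site of Zbtb11 and farther upstream in Zfp458.

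The last 3 promoters hold GAAA, any 2 bases and GAAA, in capitals on either strand, the letters of the interferon-stimulated response element (ISRE). They belong to Irgm2 (chr11:58214727-58214976, plus strand), Oas1c (chr5:120812515-120812764, minus strand) and Slfn9 (chr11:82991831-82992080, minus strand), genes of families induced by interferon. They are a choice from 11 member promoters with these letters, and the interval of that share includes the share of all promoters.
Irgm2 promoter: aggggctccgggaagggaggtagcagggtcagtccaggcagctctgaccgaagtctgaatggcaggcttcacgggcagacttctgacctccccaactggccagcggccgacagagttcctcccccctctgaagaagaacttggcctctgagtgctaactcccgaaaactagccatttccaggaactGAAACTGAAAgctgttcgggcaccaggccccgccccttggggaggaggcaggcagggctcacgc
Oas1c promoter: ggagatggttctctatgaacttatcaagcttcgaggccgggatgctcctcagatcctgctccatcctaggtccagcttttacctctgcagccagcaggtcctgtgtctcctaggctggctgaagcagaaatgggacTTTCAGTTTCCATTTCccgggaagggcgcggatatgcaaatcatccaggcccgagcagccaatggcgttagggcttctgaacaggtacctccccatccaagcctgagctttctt
Slfn9 promoter: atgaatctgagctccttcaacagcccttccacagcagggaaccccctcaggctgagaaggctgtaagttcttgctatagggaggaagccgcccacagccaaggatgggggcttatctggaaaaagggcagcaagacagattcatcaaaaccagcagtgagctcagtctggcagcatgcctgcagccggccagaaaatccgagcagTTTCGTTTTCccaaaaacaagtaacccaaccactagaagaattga
The Oas1c promoter held these letters at 2 overlapping positions and the other two promoters at 1 each.

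The strongest of these peaks stood at genes of varied function. The peak at Dgkd, which encodes a diacylglycerol kinase, had a fold enrichment over input of 54.7 from 348 fragments at its summit (312 to 387), and the nearest ETV5 peak lay 96234 bp away. Cd200, a membrane protein that restrains myeloid cells through its receptor, had a fold of 50.3 over 2188 bp. Golga4, a golgin of the trans-Golgi network, had 49.7, and Pex19, which brings membrane proteins into peroxisomes, had 46.1. These 4 folds lie well inside the range of the 8761 peaks with ETV5, whose median was 36.5 and whose highest value was 74.7.

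Chpt1, which makes phosphatidylcholine, the main lipid of surfactant, followed with a fold of 45.8, and its peak ended only 32 bp from an ETV5 peak of fold 7.55. Slc23a2, a vitamin C transporter, had 45.2, Zup1, a ubiquitin protease, 43.6, Filip1l, a filamin-binding protein, 43.0, Sgms1, a sphingomyelin synthase, 43.0, and Vps50, a subunit of an endosome recycling complex, 41.8. Apart from Chpt1, the nearest ETV5 peak lay at least 6767 bp from each of the 10 strongest.

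The longest peak without ETV5 spanned 3230 bp at Mecom, a zinc finger transcription factor, with a fold of 41.0. It was followed by 3070 bp inside Rabgap1l, 2977 bp at Gm4258, 2975 bp at Rnase4, a secreted ribonuclease, and 2916 bp at Snx7, a sorting nexin, with folds of 22.8, 22.9, 31.5 and 33.3. The weakest peaks were one of fold 3.74 at Gna14, a G protein subunit, from 29 fragments (19.4 to 41.6), and peaks inside Phldb2, Rabgap1l and Limch1 and at Gm31242, of fold 4.34 to 5.11. Rabgap1l thus held both a long and a very weak member.

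At the limits of the choice, the shortest member, near Gm36298, was 1000 bp long with a fold of 15.7, and a peak of 999 bp with a fold of 19.8 lay just outside. Above the upper limit the shortest peak without ETV5 was 3500 bp long, at Rbms3, with a fold of 38.4, and it was one of 12 such longer peaks. On the other side of the overlap rule, a peak of fold 27.6 at Tnfrsf11a shared 1 bp with an ETV5 peak and was left out, while a peak of fold 8.37 in Heatr1, a factor of ribosome synthesis, missed one by 3 bp and was a member.

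Peaks without ETV5 were on the whole shorter and weaker than the rest of the length class. Their median length was 1245.5 bp (quartiles 1091 and 1550) against 1545 bp with ETV5, and their median fold was 16.8 (quartiles 10.6 and 24.9, range 3.74 to 54.7) against 36.5. The median number of fragments at the summit was 116.5 against 251. Fold and length come from the same peak call that the choice used, so these medians describe the members.

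The share of peaks that lacked ETV5 was high among weak H3K4me3 peaks and very low among strong ones. It was 25.9% (21.1 to 31.2) of the 309 peaks of fold under 10, 13.3% of those from 10 to under 20, 4.47% from 20 to under 30 and 1.92% from 30 to under 40. Of the 3524 peaks of fold 40 or more, 13 lacked ETV5, which is 0.369% (0.197 to 0.630). By length the share was 6.06% at 1000 to 1499 bp and 2.40%, 1.94% and 1.39% in the 3 longer classes.

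**Figure D1:**
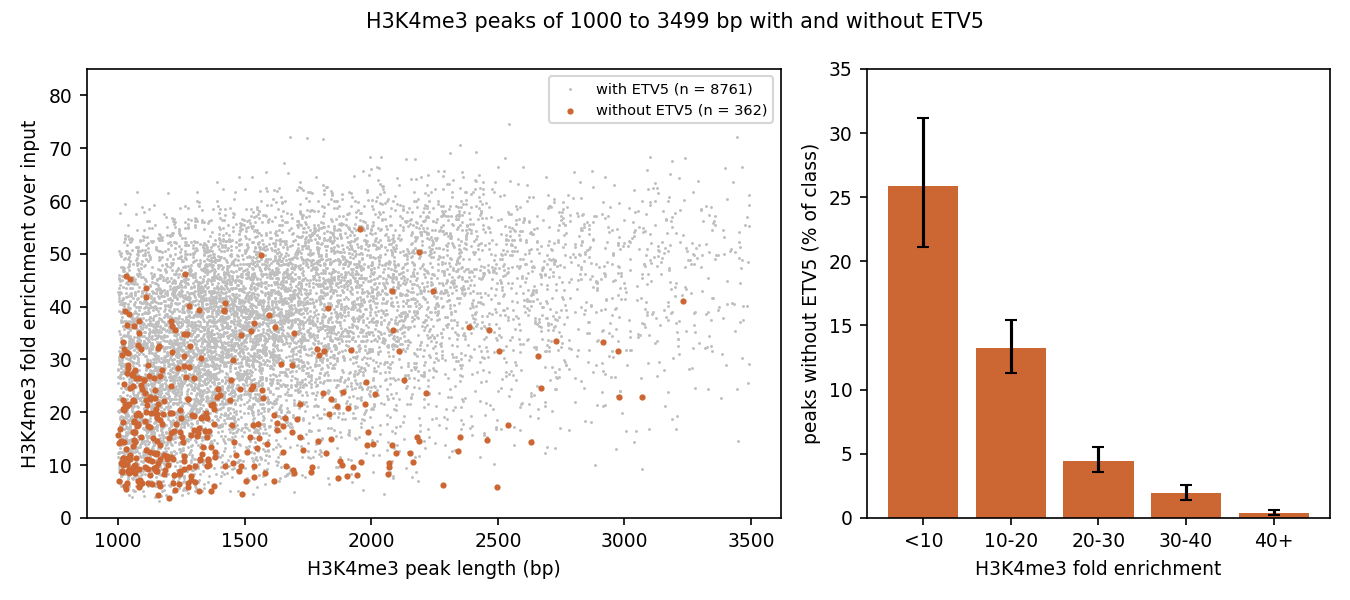
H3K4me3 fold enrichment against peak length for the 362 peaks without ETV5 (orange) and the 8761 peaks with ETV5 (grey), and beside it the share of peaks without ETV5 in each fold class with exact 95% intervals. The orange points gather at short lengths and low folds, and the bars run from 25.9% down to 0.369%.

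The distance to the nearest ETV5 peak varied widely. Overlap was excluded by the choice, and the distances were not compared with those of other regions. The median distance between edges was 27940.5 bp, 27 members had an ETV5 peak within 1 kb, 48 at 1 to 5 kb, 77 at 5 to 20 kb, 125 at 20 to 100 kb and 85 beyond 100 kb. The 8 members over 1 Mb from ETV5 included one in Naaladl2 at 2323307 bp, one at Tmem47 on X at 1552738 bp and one in Pappa, a protease of IGF-binding proteins, at 1380522 bp. Trim32, a ubiquitin ligase, had the highest fold of these 8, 36.3, at 1246438 bp from ETV5. A peak in Amot on X, an angiomotin of the Hippo pathway, had a fold of 9.25 at 1186314 bp.

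**Figure D2:**
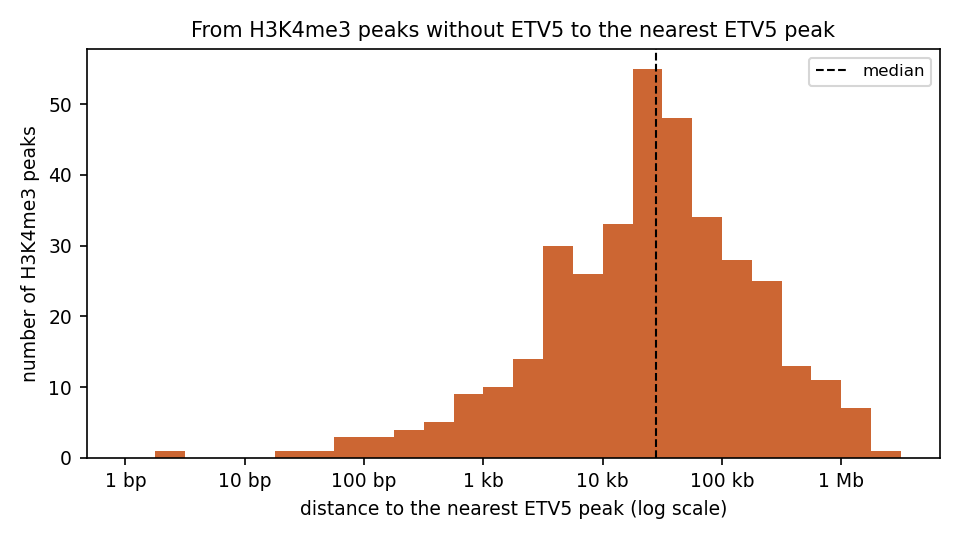
Number of H3K4me3 peaks without ETV5 by the distance between their edge and the nearest ETV5 peak, on a log scale. The dashed line is the median of 27940.5 bp, and the distances run from 3 bp at Heatr1 to 2323307 bp in Naaladl2.

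Some of the close ETV5 peaks lay in a neighbouring H3K4me3 peak. The 27 within 1 kb, all on autosomes, had a median ETV5 fold of 6.68 (3.0 to 27.6), near the 6.57 of all autosomal ETV5 peaks. Of the 27, 14 lay in another H3K4me3 peak. That share is close to the one over all autosomal ETV5 peaks, of which 14825 of 30627 lay in an H3K4me3 peak. One of the 14 lay in the 12934 bp H3K4me3 domain of Nkx2-1, the master transcription factor of lung epithelium. The member beside it was 1578 bp long with a fold of 8.47, and the ETV5 peak inside the domain lay 91 bp away. Members beside Tpm1, a tropomyosin, and Ubb, a ubiquitin gene, had folds of 5.96 and 9.66, next to H3K4me3 peaks of fold 56.6 and 43.2 that carried ETV5. In 10 of the 14 cases the neighbouring peak had the higher fold. In the other 4 the member did, at Chpt1 (45.8 beside 2.84), Wtip (36.6 beside 11.4), Fam189a2 (31.9 beside 22.9) and Nckap5 (28.5 beside 24.95). Of all 362 members, 61 had another H3K4me3 peak within 5 kb, 16.9% (13.1 to 21.1), and the share with ETV5 was 17.3%, inside that interval.

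Peaks without ETV5 lay at promoters less often than the rest of the class. Start sites came from the RefSeq promoter table, which lists none on chromosome 18, where 5 members lie. A start site lay within 1 kb of 213 members, 58.8% (53.6 to 64.0), against 77.6% of peaks with ETV5. Another 41 (11.3%) were within 1 kb of a gene end that has no listed start site, 66 (18.2%, 14.4 to 22.6) lay inside a gene away from its ends against 4.54% with ETV5, and 42 (11.6%, 8.49 to 15.4) lay between genes against 1.78%. Start sites of both strands were near 8.01% of members (5.43 to 11.3) and 17.1% of peaks with ETV5.

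This difference was found among weak peaks. Below a fold of 20, a start site lay within 1 kb of 46.2% of members (39.5 to 53.0) and of 63.6% of peaks with ETV5. From 20 to under 30 the shares were 75.9% (65.0 to 84.9) and 74.6%, and at 30 or more they were 83.3% (71.5 to 91.7) and 81.2%, so that no difference was seen at this number of peaks. The strongest members more than 5 kb from any listed start site were a 2466 bp peak of fold 35.6 in Atp7b, a copper transporter, and peaks of fold 26.0 in Pde7b, a phosphodiesterase of cyclic AMP, 23.2 in Cytip, 22.8 in Rabgap1l and 22.6 near Aqp11.

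The X chromosome held many more of these peaks than its size in the list. It carried 39 of the 362 members, 10.8% (7.77 to 14.4), but 2.72% of the peaks with ETV5. Seen the other way, 14.1% of X peaks in the length class lacked ETV5 (10.2 to 18.7) against 3.65% on the autosomes, among which the share ran from 1.45% on chromosome 8 to 5.49% on chromosomes 3 and 13. The H3K4me3 fold was also lower on X, with a median of 24.3 against 37.0 for peaks with ETV5, while the medians without ETV5 were 16.0 on X and 16.8 on the autosomes. For peaks with ETV5 the input background behind the fold had a median of 5.38 on both, with upper quartiles of 5.38 on X and 6.24 on the autosomes. The value 5.38 was also the lowest over all H3K4me3 peaks, a floor that hides any lower input. Equal medians therefore do not show equal input on X and the autosomes. Sex is not labelled, and 7 H3K4me3 peaks lay on Y. The part of the number of X copies in the lower folds and in the share without ETV5 was not tested. The median fold of ETV5 peaks that overlapped H3K4me3 was 8.74 on X and 11.1 on the autosomes, with median pileups of 15 and 23 fragments. The share without ETV5 was higher on X within classes of similar H3K4me3 fold too, and the part of the lower ETV5 signal in it was not tested. It was 53.8% against 24.7% under a fold of 10, 23.4% against 12.5% from 10 to under 20, 7.87% against 4.20% from 20 to under 30 and 7.27% against 1.80% from 30 to under 40. The X intervals were 25.1 to 80.8, 14.5 to 34.4, 3.84 to 14.0 and 2.02 to 17.6, and the third of these included the autosomal share. At a fold of 40 or more X had 5 peaks, all with ETV5.

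**Figure D3:**
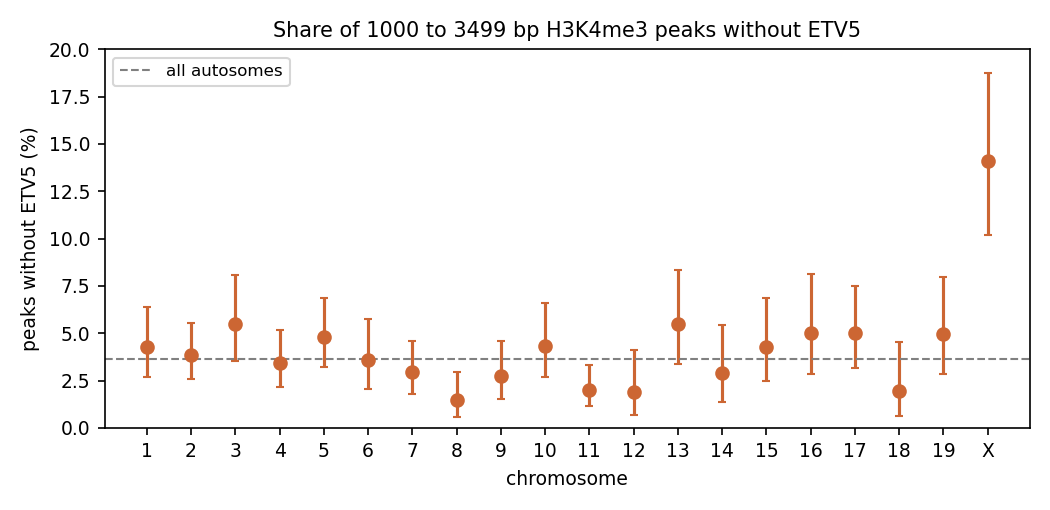
Share of H3K4me3 peaks of at least 1000 bp and under 3500 bp without ETV5 on each chromosome, with exact 95% intervals, and the share over all autosomes as a dashed line at 3.65%. The X chromosome is at 14.1%, and every autosome is at or below 5.49%.

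Among the strongest members on X were those at Rbmx, an RNA-binding protein of splicing, with a fold of 35.6, and Tsc22d3, a glucocorticoid-induced leucine zipper protein, with 33.4. The neighbouring family of small BEX, TCEAL and ARMCX genes was next, with Tceal9 at 31.7 and Tceal8 at 29.2. This list was drawn up after the values had been seen. Of its 7 genes at a peak of the length class, 5 were only at peaks without ETV5, 71.4% (29.0 to 96.3). The share was 2.58% of all 10888 genes at such peaks. The genes of this list all lie on X, where 14.1% of length-class peaks lacked ETV5. Here and below, these counts look at peaks of the length class alone. A gene so counted may still have an H3K4me3 peak of another length that carries ETV5. Tceal1 had a fold of 20.5, Bex2 12.5 and Armcx1 8.78, and the median over the 5 peaks was 20.5. Between positions 135795892 and 136709092 of X lay 6 members, at Gprasp1, Bex2, Tceal8, Tceal9, Tceal1 and 1 position without a gene, and 1 peak of the length class with ETV5. Tceal8 and Tceal9 lay 284878 and 358189 bp from the nearest ETV5 peak.

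Zinc finger protein genes formed the largest named family. Most of them encode repressors that bind DNA through arrays of zinc fingers, and many sit in tandem clusters. Of 297 such genes at a peak of the length class, 21 were only at peaks without ETV5, 7.07% (4.43 to 10.6), against 2.58% of all genes. The 20 peaks had a median fold of 26.7 (11.8 to 40.1). The median was 16.8 over all members and 21.1 over members with a start site within 1 kb. Zfp952 had 40.1, Zfp950 36.4, Zfp101 35.6, Zfp458 33.3, Zfp157 32.0, Zfp459 31.3, Zfp385b 30.8, and Zfp65 shared a peak of 29.0 with Zfp85os. A cluster on chromosome 13, from 67268579 to 67729679, held 6 members at Zfp458, Zfp595, Zfp459, Zfp874a and Zfp65 among 9 length-class peaks with ETV5. On chromosome 17, from 32505870 to 33395201, members at Cyp4f17, Zfp952, Zfp763 and Zfp101 lay among 5 with ETV5. Cyp4f17, a cytochrome P450 gene, was matched by its gene end.

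Among genes of immune function, the lists held few genes at length-class peaks. Of 5 MHC class II genes at a peak of the length class, H2-Aa and H2-Eb1, chains of the proteins that present antigen to helper T cells, were only at peaks without ETV5, with folds of 31.7 and 28.7 at 8972 and 2716 bp from ETV5. The others, among them Cd74, had ETV5. The share is 40% (5.27 to 85.3), beside 2.58% of all genes. Tlr4, the receptor for bacterial lipopolysaccharide, had a fold of 20.9 and Tlr3, a receptor for double-stranded RNA, 18.98, and no other Toll-like receptor gene was at a length-class peak (2 of 2, exact interval 15.8 to 100%). Of 7 interferon response genes at such a peak, Usp18, a protease that removes ISG15, lacked ETV5, with a fold of 25.4, and the interval of that share (0.361 to 57.9%) includes 2.58%. Slfn9 was the 1 Schlafen gene at such a peak, and it lacked ETV5 (exact interval 2.5 to 100%, which includes 2.58%). The Toll-like receptor and Schlafen lists were drawn up after the values had been seen. Cxcl1, a neutrophil chemokine, had a fold of 13.6.

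AT2 marker genes were among the members on X. Of 10 AT2 marker genes at a peak of the length class, S100g, a small calcium-binding protein, and Bex2, both on X, were only at peaks without ETV5, with folds of 14.9 and 12.5. That share is 20% (2.52 to 55.6), an interval that includes the 2.58% of all genes, so no difference from it was detectable. Bex2 is also counted in the BEX, TCEAL and ARMCX list. Among 16 surfactant and lipid synthesis genes at a length-class peak, Chpt1 alone was counted so, although its adjacent 294 bp H3K4me3 peak, outside the length class, carried ETV5. None of 12 AT1 marker genes, 15 MAPK feedback genes, 84 cytosolic ribosomal protein genes or 59 mitochondrial ribosomal protein genes was only at a peak without ETV5. Counted as 3 genes of the total, such counts of 0 allow shares of up to 25%, 20%, 3.57% and 5.08%, and the exact upper limits are 26.5%, 21.8%, 4.30% and 6.06%. For complex I it was 1 of 38, Ndufs5, with a fold of 32.6, and for the proteasome 1 of 37, Psmd10 on X, with 21.6. The exact intervals of these 6 lists all include the 2.58% of all genes, so no difference from it was detectable. Hp, haptoglobin, of the airway secretory list had 13.8, and Esam, an endothelial adhesion molecule, 5.80, both matched by a gene end. Esam also had a stronger H3K4me3 peak outside the length class, of 4191 bp and fold 24.6, and that peak carried ETV5.

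Transporters and detoxifying enzymes contributed further members. Of 159 solute carrier genes at a length-class peak, 7 were only at peaks without ETV5, 4.40% (1.79 to 8.86), an interval that includes the 2.58% of all genes. Besides Slc23a2 they included the polyamine transporter Slc18b1 with a fold of 39.4, the glutamate transporter Slc1a3 with 25.7, the amino acid transporter Slc38a4 with 22.3, the peptide transporter Slc15a2 with 16.2 and the amino acid transporter Slc6a14 with 14.3. Glutathione transferases, which couple glutathione to reactive compounds, were at 3 of 9, 33.3% (7.49 to 70.1), with Mgst3 at 24.2, Gstt1 at 23.6 and Gsta4 at 16.7. Of 11 genes with potassium channel symbols it was 4, 36.4% (10.9 to 69.2), beside 2.58% of all genes, among them the channel subunits Kcnj13 (14.5) and Kcnmb2 (5.36) and the long noncoding RNA Kcnq1ot1 (21.6).

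Imprinted genes, expressed from one parental chromosome, were listed after the values had been seen. Of 23 at a length-class peak, 4 were only at peaks without ETV5, 17.4% (4.95 to 38.8), beside 2.58% of all genes, and the 4 genes were at 3 peaks. Slc38a4 had a fold of 22.3 and Kcnq1ot1, which silences neighbours of Kcnq1, 21.6. Snrpn and Snurf, made from one transcript, shared a peak of 8.33. Among the genes at members, 229 were protein-coding, 55 long noncoding and 9 were tRNA genes, of which 4 shared 1 peak on chromosome 11. Of 135 tRNA genes at a length-class peak, 8 were only at peaks without ETV5, 5.93% (2.59 to 11.3), beside 2.58% of all genes. Genes that share a peak are not separate counts, so this interval is too narrow. The share only at peaks without ETV5 was 4.0% (3.02 to 5.18) of 1351 long noncoding genes and 2.32% (2.02 to 2.65) of 9021 protein-coding genes.

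**Figure D4:**
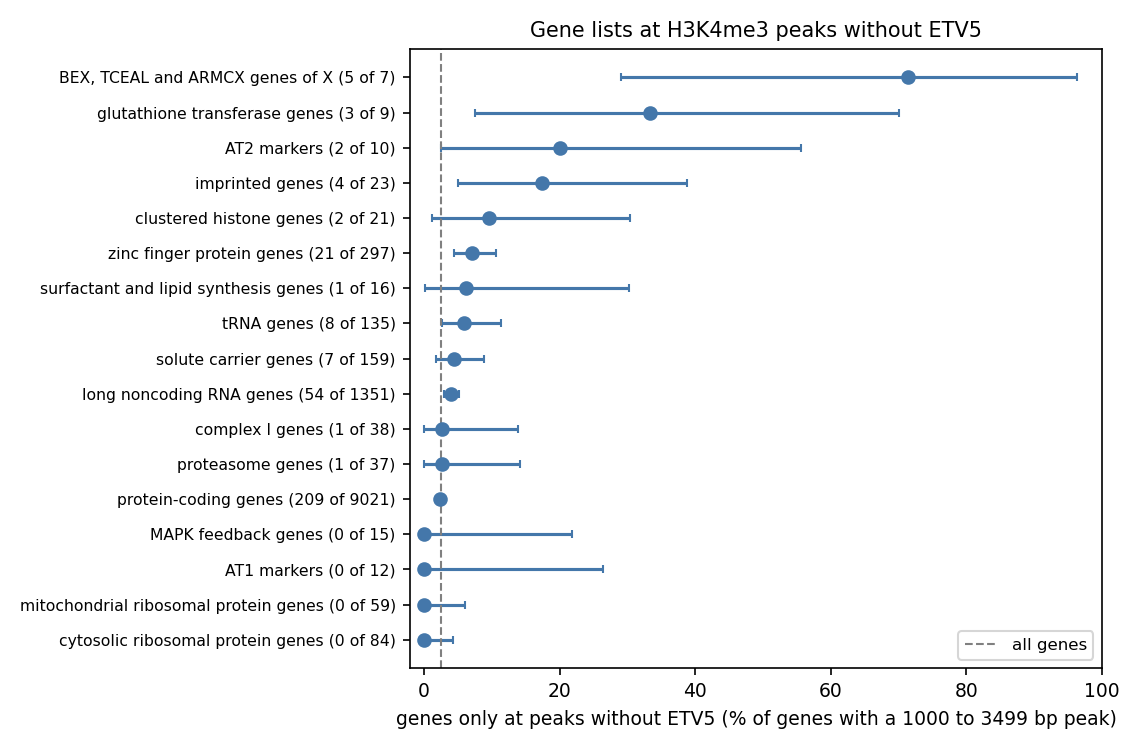
Share of the genes of each list that were only at peaks without ETV5, among those with a length-class peak and counting length-class peaks alone. Exact 95% intervals are drawn and counts are in the labels. The dashed line is 2.58% over all genes; the BEX, TCEAL and ARMCX list is at 5 of 7 and both ribosomal protein lists are at 0.

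For some genes the peak without ETV5 was one of several. Of 303 genes at members, 31 also had another H3K4me3 peak of any length that carried ETV5, in most cases the stronger one (24 of 33 pairs of peaks). For 22 of the 303 such a peak was in the length class, and these 22 alone were left out of the counts of genes only at peaks without ETV5. Elf1, itself an ETS factor, had a member of fold 10.7 and another peak of 61.0. Adgrf5, a receptor that limits surfactant in AT2 cells, had a member of fold 23.7 and, 27053 bp away, a peak of fold 50.03 with ETV5. Mecom had 41.0 at its member and 52.7 at a peak 493013 bp away. Tsc22d3 was the other way round, with 33.4 at the member and 21.3 at the peak with ETV5. Sgms1 had 43.0 and 48.3.

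Promoters at members held fewer CpG than those at peaks with ETV5. Start sites within 1 kb matched 263 promoters of 238 genes at members and 9630 promoters at peaks with ETV5, after 5 promoters near both kinds were left out. Some promoters of 1 gene or 1 peak overlap, so the intervals on promoter shares are too narrow. With 1 promoter a peak, nearest to the summit, CCGGAA stood in 16.8% (12.0 to 22.6) of 208 member promoters. It stood in 32.0% of 6775 with ETV5, and the median CpG ratios were 0.490 and 0.825. In the 300 bases from 250 before to 50 after the start site, the ratio of observed to expected CpG had a median of 0.478 (quartiles 0.323 and 0.683) at members, 0.818 (0.666 and 0.947) at peaks with ETV5 and 0.219 at the 19484 promoters with no H3K4me3 peak. A ratio of 0.6 or more was found in 36.5% (30.7 to 42.6) of member promoters, 81.8% with ETV5 and 36.04% of all 32619. The median GC content was 52% and 63%.

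The lower CpG ratio held at every H3K4me3 strength. Its median was 0.417 against 0.674 below a fold of 20, 0.431 against 0.780 from 20 to under 30 and 0.611 against 0.847 at 30 or more, the 3 classes of member promoters holding 121, 81 and 61. Member promoters covered the whole range, as the printed letters show. Dgkd was at 0.812, Zfp101 at 0.831 and Tceal9 at 0.796, near the median with ETV5, while Zup1 was at 0.449, H2-Aa at 0.158 and H2-Eb1 held no CpG at all in its 300 bases. On X the medians were 0.550 at members and 0.694 with ETV5, and on the autosomes 0.459 and 0.822.

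The ETS letters were also rarer. CCGGAA on either strand stood in 17.1% of member promoters (12.8 to 22.2), in 31.9% of those with ETV5 and in 15.0% of all promoters. CCGGAAGT stood in 3 of 263, 1.14% (0.236 to 3.30), and in 9.54% with ETV5. Those 3 were Zfp458, Zfp65 and Zfp85os, of the chromosome 13 cluster, and the last pair start from 1 peak. The bare GGAA was in nearly all promoters, 97.3% and 95.2%. CCGGAA itself contains a CG, and the CpG ratio differed between the sets. Among promoters with a CpG ratio of 0.6 or more, CCGGAA was in 13.5% at members (7.41 to 22.0) and 35.03% with ETV5, and under 0.6 it was in 19.2% (13.5 to 26.0) and 18.04%. The difference was thus seen in the CpG-rich promoters, and in the others the share with ETV5 lay inside the interval of the members. By H3K4me3 fold the shares were 14.05% (8.40 to 21.5) and 19.1% under 20, 23.5% (14.8 to 34.2) and 31.6% from 20 to under 30, and 14.8% (6.98 to 26.2) and 33.8% at 30 or more. The share with ETV5 lay outside the interval of the members in the last class and inside it in the other two.

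In zinc finger promoters the shares were close. CCGGAA stood in 8 of 21 such promoters at members, 38.1% (18.1 to 61.6), and in 38.7% of 274 zinc finger promoters with ETV5. The 8 include overlapping stretches of Zfp873, and of Zfp65 with Zfp85os, so they are not all separate and the interval is too narrow. Their median CpG ratios were 0.487 and 0.757.

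Other promoter letters were compared in the same way. The GC box GGGCGG was in 34.6% of member promoters (28.9 to 40.7) against 70.5% with ETV5, and the NRF1 letters (GCGC, any base, TGCGC) in 6.08% (3.52 to 9.69) against 11.7%. Over all promoters the 2 shares were 35.9% and 4.63%. CCAAT was more frequent at members, 46.8% (40.6 to 53.0) against 36.4%, and 37.6% over all promoters. TATAAA was in 11.8% (8.15 to 16.3) against 5.33%, and 13.7% over all. Within CpG classes the GC box was rarer at members too, 54.2% (43.7 to 64.4) against 76.1% at a ratio of 0.6 or more and 23.4% (17.2 to 30.5) against 45.3% below it. The NRF1 shares were close there, 14.6% (8.21 to 23.3) against 13.9% and 1.20% (0.145 to 4.26) against 2.17%. CCAAT was in 40.6% (30.7 to 51.1) against 35.7% of CpG-rich promoters, a difference within the interval, and in 50.3% (42.5 to 58.1) against 39.2% of the others. TATAAA was in 10.4% (5.11 to 18.3) against 4.57% and in 12.6% (7.96 to 18.6) against 8.73%, the second within the interval. The ISRE letters were in 11 member promoters, 4.18% (2.11 to 7.36), an interval that includes the 2.64% with ETV5 and the 3.46% of all promoters.

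**Figure D5:**
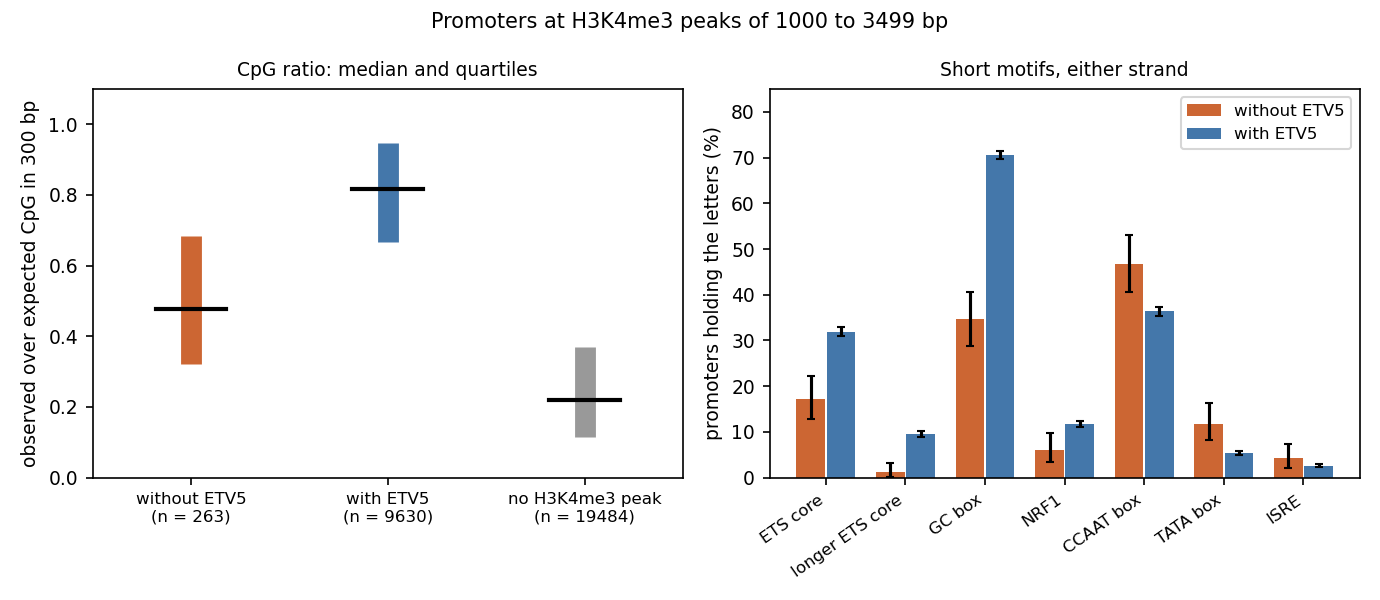
Observed over expected CpG in the 300 bases around the start site (bar from the lower to the upper quartile, line at the median) and share of promoters that hold each motif on either strand, with exact 95% intervals. Members sit between promoters with ETV5 and promoters with no H3K4me3 peak in CpG, below those with ETV5 in ETS cores and GC boxes, and above them in CCAAT and TATA boxes.

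The 11 promoters with ISRE letters were those of Hax1, Tmem140, Gstt1, Eif2ak2, Irgm2, Slfn9, Agmo, Lgals9, Oas1c, Cytip and Ptgs2os2. Eif2ak2, the kinase that halts translation on viral RNA, had a peak of fold 22.6, Irgm2, an immunity-related GTPase, 19.5, Slfn9 15.4, Lgals9, a galectin, 13.5 and Oas1c, of the oligoadenylate synthetase family, 12.1. Their nearest ETV5 peaks lay 33308, 23714, 57598, 16815 and 100301 bp away. The other peaks had folds of 30.0 at Hax1, 28.4 at Tmem140, 23.6 at Gstt1, 14.4 at Agmo, 10.5 at Cytip and 9.88 at Ptgs2os2. All 11 genes were named for the letters in their promoters, not for their values. Those described first were picked from the 11 for their function. Whether genes induced by interferon are frequent among the 11 was not tested, and the letters mark no measured binding.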

How the data were processed

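ETV5 and H3K4me3 peaks were called in 1 library each with MACS2 2.1.0.20150420 (per the submitters' processing notes) at a q-value threshold of 0.05 (per the file headers). For the aligner, nothing is given in the sources used here. Each pileup signal is the deposited number of fragments over the summit, the fold enrichment ratio is the deposited pileup over local input background with 1 added to both, and −log10 of the p-value and q-value are as the authors deposited them. Peak positions and lengths are in bp per the file headers. Per the labels the build is mm9, but the coordinates are those of GRCm38, under which they are given. The input named in the header of the ETV5 list differs from that of the H3K4me3 list (27495486 and 44758677 tags).

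Peaks on chromosomes 1 to 19 and X were joined by overlap of at least 1 bp (Python 3.11.15, numpy 2.4.6, pandas 2.3.3, scipy 1.17.1, matplotlib 3.10.9), after a check on simulated data. A gene counted at a peak when a RefSeq GRCm38.p6 start site, or for genes without one a gene end, lay within 1 kb. Of 21627 protein-coding genes, 17273 had a start site. Motifs were searched on both strands. The CpG ratio is CpG count times length over C count times G count. No genome was used, so letters come from the promoter table only.

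The members and lists were chosen with earlier results of these data known, and the imprinted, BEX, TCEAL and ARMCX, Schlafen, Toll-like receptor, tRNA and long noncoding lists were added after values were seen. Named genes are the 10 highest-fold members, the 5 longest, the 5 of lowest fold, the 5 farthest from and nearest to ETV5, the 5 highest on X and away from start sites, those at the limits and up to 8 a list by fold. Other genes were named after their values were seen. A few genes named by this rule are not reported here. The alternatives were the length limits, the overlap rule, the ETV5 and H3K4me3 thresholds, the autosomes alone, start site windows and motifs.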

Additional observations from a re-analysis of the deposited data

Results flagged for a closer look

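Outside the chromosomes that the description covers, the H3K4me3 list held 12 peaks on Y and unplaced scaffolds. Of the 6 in the same length range, 4 overlapped no ETV5 peak, a signal in data that no comparison above uses. The 3 on Y were 1511, 1096 and 1511 bp long with folds of 12.9, 15.1 and 16.3, and the 1 on a scaffold was 1113 bp long with a fold of 21.6.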

How the results depend on the processing

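Of 55 values under alternative settings, 40 stayed within the 95% interval of the value given (counts within 1.5 times). In all 34 alternatives for start sites, fold, CpG ratio and ETS core, peaks without ETV5 had the lower value, and in all 6 for X the higher one. A lower limit of 1200 bp left 204 members. With ETV5 peaks counted only from a −log10 q of 10 upwards there were 1373 members, with a start site share of 67.1%, a median fold of 22.7, 7.21% on X and a CpG ratio of 0.634. H3K4me3 folds of at least 10 gave a start site share of 67.4% and a median fold of 19.9. The start site share was 66.3% within 5 kb and 52.5% for protein-coding start sites. Another H3K4me3 peak within 5 kb was found for 12.8% of members with no ETV5 within 1 kb and, where at least 50% of an ETV5 peak had to lie inside, for 28.1%, with a CpG ratio of 0.536. Within 20 kb it was 37.3%. The longer ETS core gave 1.14%. Leaving out chromosome 18, an alternative chosen after seeing the data, gave a start site share of 59.7%. The cause of these shifts was not tested. The ETV5 depth of 5715049 tags limits which weak peaks could be called. No paired analysis was possible because each antibody had 1 library.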
